A study of Mus musculus with 2 samples.

Results

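Tff1, Krt18, Epcam and Cdh1 are genes best known from epithelium, and their transcripts were followed here in T cells sorted from the mouse colon. The 4 genes were chosen out of 11971 in the table because earlier results of these data had shown them among the differences between KO and WT labels. Their KO to WT differences and their levels by cluster are therefore descriptions with no test. The cells came from Rag-/- mice, which make no T or B cells of their own, after adoptive transfer to produce colitis. KO-labelled mice (6) were given CD4+ T cells deficient in BCL-6, and WT-labelled mice (6) were given cells described as naive or as CD4+, CD45RBhigh and CD25-. How Bcl6 was deleted and the donors and ages of the animals are not stated. TCRb+CD4+ cells of each colon were sorted, and hashtag antibodies marked the mouse of origin in 1 pooled library of 5′ chemistry. A T cell receptor clonotype was deposited for 16175 of the cells. The table held 18860 cells, of which 9708 came from KO-labelled mice and 9152 from WT-labelled mice. Each mouse gave 1409 to 1736 cells and 4252124 to 5523025 unique molecular identifiers (UMIs, 1 per captured transcript). Bcl6 itself had 65.8 to 91.3 CPM (UMIs per 1000000 UMIs of the same mouse or cluster) in KO-labelled mice and 48.4 to 69.6 CPM in WT-labelled mice, a log2 fold change of 0.48 ± 0.10 (SE, adjusted p 0.00398, edgeR). The level of the targeted gene thus went against the label, and whether its reads lie in the deleted part is not known, so mice are named by their labels and every direction below rests on them.

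Tff1 encodes a small secreted trefoil peptide of mucus-producing epithelium that helps mucosal repair. Krt18 encodes a keratin that builds intermediate filaments together with its partner Krt8. Epcam and Cdh1 encode cell adhesion molecules, and CDH1, or E-cadherin, is the ligand of the integrin CD103 that keeps T cells in the epithelium. In droplet libraries such transcripts can come from the T cell, from a second cell in the droplet or from free RNA in the suspension. Each gene was described by subset, by UMIs per cell with a UMI and by the doublet score. Droplets without cells were not analysed here, so free RNA itself was not measured, and the source of the transcripts was not tested beyond these values.

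In the GRCm38 build, annotated by GENCODE, Tff1 lies on chr17:31161395-31165277 on the minus strand. Its coding sequence is shown because Tff1 carries most of the UMIs in question. It spans 3 exons and 87 codons, with the 8 cysteine codons, several of which form the disulfide bonds that shape the trefoil fold, in capitals.
Tff1: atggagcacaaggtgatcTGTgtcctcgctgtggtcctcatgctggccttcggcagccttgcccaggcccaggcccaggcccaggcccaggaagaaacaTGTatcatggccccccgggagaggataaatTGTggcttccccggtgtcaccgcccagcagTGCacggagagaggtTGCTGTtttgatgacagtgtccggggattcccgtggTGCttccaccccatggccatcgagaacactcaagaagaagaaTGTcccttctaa
The antisense gene Gm15318, at chr17:31152752-31163054 on the plus strand, overlaps it. The sources do not say if strand entered the counting, so Tff1 UMIs that stem from that gene cannot be told apart. Krt18 lies on chr15:102028180-102032027, Epcam on chr17:87635979-87651129 and Cdh1 on chr8:106603351-106670246, each on the plus strand with no other annotated gene overlapping.

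Tff1 was lower in KO-labelled mice than in WT-labelled mice, with no overlap between the genotypes. Levels in CPM are not per gene length, so they are compared within a gene. KO-labelled mice 1 to 6 had 2.78, 0.706, 1.58, 12.1, 3.2 and 37.1 CPM, and WT-labelled mice 1 to 6 had 112.9, 85.6, 77.0, 106.4, 69.2 and 67.0 CPM. KO-labelled mouse 6 stood apart from the other KO-labelled mice, and the WT-labelled mice ran from 67.0 to 112.9 CPM. The mean was 9.58 ± 14.1 CPM in KO-labelled mice and 86.4 ± 19.3 CPM in WT-labelled mice (SD, n = 6 each), a log2 fold change (KO over WT) of -3.11 with an SE of 0.48. Without KO-labelled mouse 6 it was -4.44. With each cluster weighted in every mouse by its share of the cells of all mice (fixed cluster weights) it was -2.53.

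Krt18 was also lower in KO-labelled mice. Its levels were 2.99, 2.12, 4.28, 2.74, 3.84 and 6.34 CPM in KO-labelled mice and 15.99, 14.6, 9.63, 19.0, 7.79 and 15.5 CPM in WT-labelled mice, again without overlap. The log2 fold change was -1.89 with an SE of 0.25, and -1.39 with fixed cluster weights. Krt8, the usual filament partner, had 63 UMIs in all against 516 of Krt18, with 37 in KO-labelled mice and 26 in WT-labelled mice.

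Epcam and Cdh1 ran the other way, with ranges that overlapped. Epcam had 5.78, 6.35, 2.48, 0.913, 2.99 and 2.72 CPM in KO-labelled mice and 1.32, 1.23, 1.00, 2.29, 0.210 and 2.62 CPM in WT-labelled mice. Its log2 fold change was 1.23 with an SE of 0.44, and 0.67 with fixed cluster weights. Cdh1 had 13.0, 17.2, 6.76, 5.25, 8.75 and 2.72 CPM in KO-labelled mice and 6.77, 4.10, 1.40, 2.50, 4.84 and 3.03 CPM in WT-labelled mice, a log2 fold change of 1.17 with an SE of 0.40. With fixed cluster weights the log2 fold change of Cdh1 was 1.01. KO-labelled mice 1 and 2 were the highest for both genes.

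**Figure D1:**
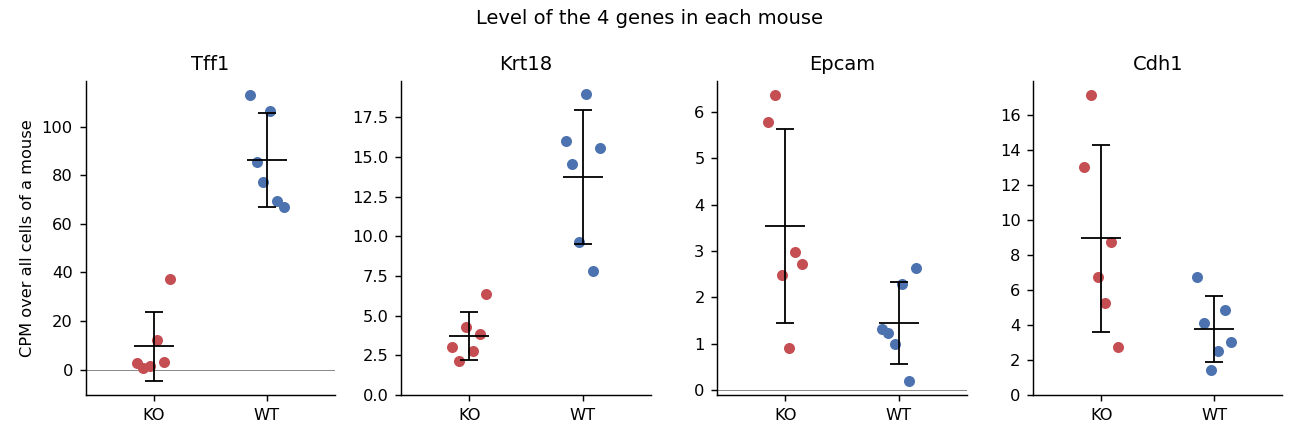
CPM over all cells of a mouse for Tff1, Krt18, Epcam and Cdh1, with 1 point per mouse and the mean with SD in black. KO-labelled mice lie below all WT-labelled mice for Tff1 and Krt18, and the genotypes overlap for Epcam and Cdh1.

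All 4 genes passed the filter on low counts over all cells, and edgeR's quasi-likelihood test called 2 of them at an adjusted p under 0.05. The same fit called 14.2% of 9861 genes, and since these 4 genes were chosen from this contrast nothing is read from their count. Of the 42 other genes of an epithelial panel, 15 were in the table and 2 could be tested, the antimicrobial lectins Reg3b and Reg3g. Neither was called, nor did either reach an unadjusted p under 0.05. Reg3b had 413 UMIs in KO-labelled mice and 418 in WT-labelled mice, with a log2 fold change of 0.04 ± 0.12 (SE) and an adjusted p of 0.885 (edgeR). Reg3g had 151 UMIs in KO-labelled mice and 150 in WT-labelled mice. Lgals4, a galectin of enterocytes, was under the filter, with 67 UMIs from the KO-labelled mice against 55 from the WT-labelled. Saa3, an acute phase gene, was under it too, with 20 against 42. The summed level of the 15 panel genes ran from 24.6 to 35.6 CPM in KO-labelled mice and from 24.0 to 31.4 CPM in WT-labelled mice, with overlapping ranges.

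Some markers of other cell types differed between the genotypes, and those called in the main fit over all cells were lower in KO-labelled mice. Calls in the other direction came only under alternatives. Of the B and plasma cell list, 3 of 7 genes were in the table, with a summed level of 12.2 to 26.7 CPM in KO-labelled mice and 22.3 to 38.9 CPM in WT-labelled mice. Igkc, the kappa light chain, was lower in KO-labelled mice with a log2 fold change of -3.54 ± 0.44 (SE) and an adjusted p of 7.02e-05 (edgeR). It had 44 UMIs in KO-labelled mice and 536 in WT-labelled mice, and without KO-labelled mouse 5 the log2 fold change was -4.54. Ighm and Cd79b had the opposite sign, at 0.60 and 0.24, and were not called, though Ighm was in cells with a clonotype (0.84, adjusted p 0.0330, edgeR). Klrb1c, the only NK marker of 2 in the table, fell by 1.58 on the log2 scale (SE 0.40, adjusted p 0.0134, edgeR). That call was lost with fixed cluster weights (-1.12, adjusted p 0.0941, edgeR). The 6 of 8 myeloid genes in the table summed to 112.4 to 152.3 CPM in KO-labelled mice and 143.2 to 150.7 CPM in WT-labelled mice. Of the 3 that could be tested Cst3 was called, with a log2 fold change of -0.21 (adjusted p 0.0476, edgeR). It was not called with fixed cluster weights (adjusted p 0.193, edgeR), nor without any 1 mouse other than KO-labelled mouse 4 or 6. Itgax had the opposite sign, with a log2 fold change of 1.14 (adjusted p 0.0601, edgeR), and was called with fixed cluster weights (1.73, adjusted p 0.000448, edgeR). Pecam1, the only endothelial marker of 2 in the table, was not called, and none of the 4 erythroid and 5 stromal markers was in the table. Their part in the values of the 4 genes was not tested.

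Tff1 was concentrated in the cells the authors labelled Th17, which make the cytokine IL-17A. Those cells held 62.5% of all Tff1 UMIs and 13.9% of all UMIs. In Th17 cells, KO-labelled mice 1 to 6 had 21.0, 0, 10.8, 84.1, 32.3 and 185.7 CPM, and WT-labelled mice had 306.0, 298.5, 295.3, 333.5, 185.4 and 169.5 CPM. KO-labelled mouse 6 was above WT-labelled mice 5 and 6 there, and the other KO-labelled mice were below all WT-labelled mice. The next clusters in WT-labelled mice were cycling cells with a mean of 99.1 ± 33.4 CPM, cytotoxic cells with 49.2 ± 20.7 CPM, regulatory cells with 37.6 ± 53.4 CPM in 3 mice and recirculating cells with 21.0 ± 9.78 CPM (SD over mice). The lowest were the 2 clusters that carry only a general CD4 label, called unnamed 3 and unnamed 1, with 0.872 and 0.947 CPM in KO-labelled mice and 12.9 and 9.10 CPM in WT-labelled mice. In WT-labelled mice only the step between Th17 and cycling cells had no overlap between mice. All steps below it overlapped, as did every step in KO-labelled mice.

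Krt18 had the same leading cluster, with 54.7% of its UMIs in Th17 cells, 259 of those 282 UMIs from WT-labelled mice. In KO-labelled mice the lead was within the spread, with 10.1 ± 9.89 CPM in Th17 cells and 4.84 ± 3.44 CPM in cytotoxic cells (SD over mice), and the 2 clusters overlapped. Th17 cells of KO-labelled mice had 7.01, 0, 10.8, 0, 24.3 and 18.7 CPM, and those of WT-labelled mice 48.4, 54.6, 30.2, 46.4, 33.5 and 36.1 CPM. The genotypes did not overlap. Recirculating cells followed in WT-labelled mice with 9.85 ± 2.44 CPM, and the regulatory cells of the 3 WT-labelled mice with at least 20 such cells had no Krt18 UMI.

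Epcam had its highest level in regulatory T cells, which held 27.0% of its UMIs and 1.88% of all UMIs. KO-labelled mice 1, 2, 4, 5 and 6, which had at least 20 regulatory cells, had 29.5, 48.9, 0, 37.9 and 48.8 CPM there, and WT-labelled mice 1, 4 and 6 had 32.9, 42.0 and 9.64 CPM. The 2 genotypes overlapped in that cluster. The means of the next clusters were 4.0 CPM in unnamed 3 of KO-labelled mice and 3.04 CPM in unnamed 1 of WT-labelled mice.

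The mean of Cdh1 was highest in cytotoxic cells of KO-labelled mice and in unnamed 1 of WT-labelled mice, but both overlapped with the next cluster and differed from it by less than 1 SD. Cytotoxic cells had 26.7, 37.9, 17.3, 12.7, 20.8 and 9.08 CPM in KO-labelled mice and 10.2, 6.59, 1.41, 5.02, 7.93 and 8.27 CPM in WT-labelled mice, with an overlap only between KO-labelled mouse 6 and WT-labelled mouse 1. Unnamed 1 had a mean of 11.98 ± 8.36 CPM in KO-labelled mice and 7.74 ± 6.84 CPM in WT-labelled mice. Regulatory cells had 0 Cdh1 UMIs in 380 cells, which allows a share of cells with a UMI of up to 0.789%, for counting error only. Epcam and Cdh1, both adhesion genes of epithelium, thus differed in regulatory cells, where Epcam led and Cdh1 had no UMI.

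**Figure D2:**
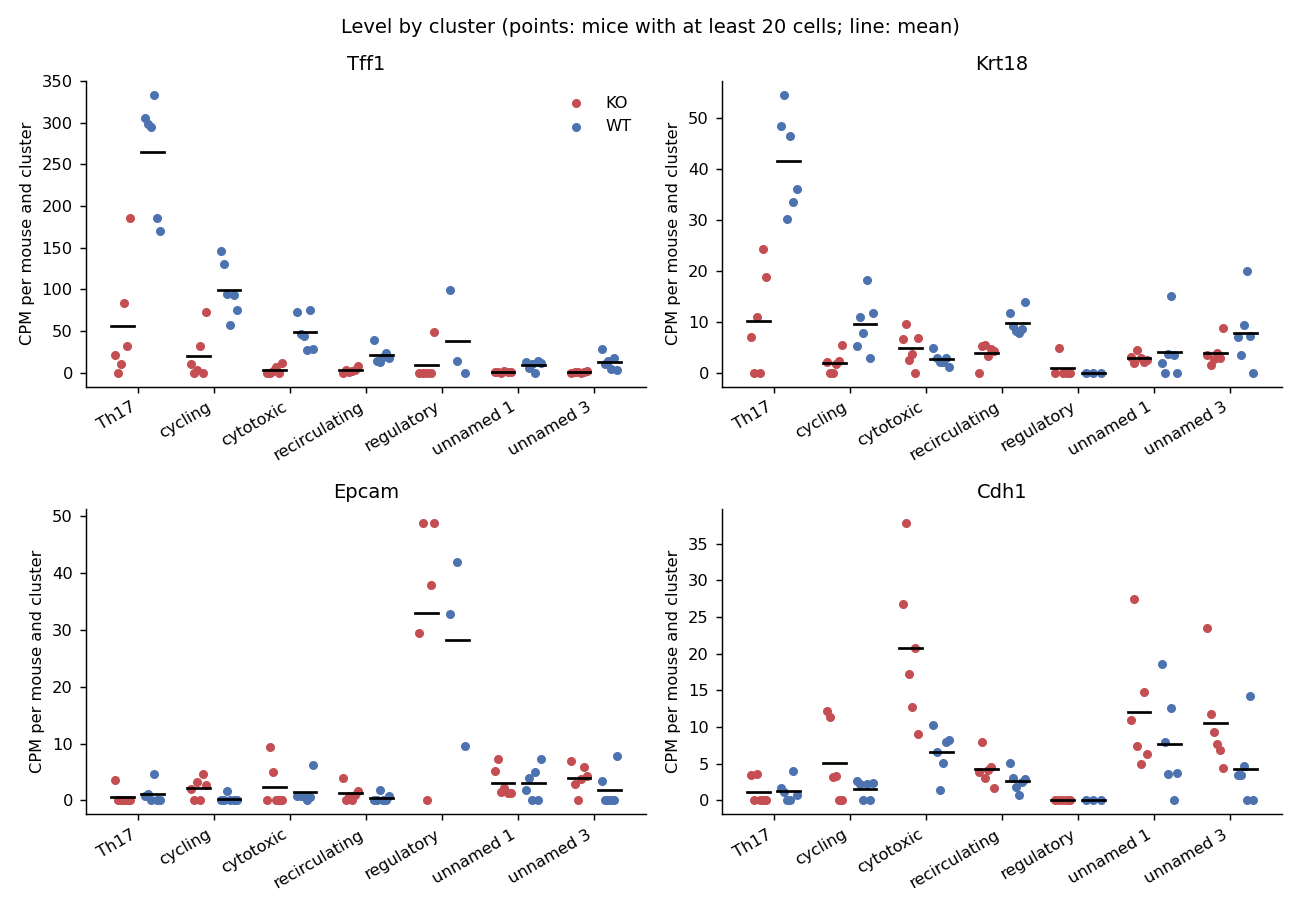
CPM of each gene per mouse and cluster, KO left of WT within each cluster, with a line at the mean over mice that had at least 20 cells. The means of Tff1 and Krt18 are highest in Th17 cells, that of Epcam in regulatory cells and that of Cdh1 in cytotoxic and unnamed cells. In KO-labelled mice the leading cluster of each gene overlaps with the next.

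Cluster sizes also differed between the genotypes. Th17 cells made up 5.80% of cells of KO-labelled mice (2.68 to 10.8% per mouse) and 18.1% of cells of WT-labelled mice (9.37 to 24.9%). With KO-labelled mice first, unnamed 1 made up 32.7% and 8.41%, unnamed 3 23.6% and 7.57%, and regulatory cells 2.62% and 1.38%. Cytotoxic cells made up 8.43% and 33.2%, recirculating cells 20.5% and 25.1%, and cycling cells 6.38% and 6.22%. Within Th17 cells the log2 fold change of Tff1 was -1.82 ± 0.35 and that of Krt18 -1.82 ± 0.34 (SE, 6 KO and 6 WT-labelled mice). Tff1 was also lower in KO-labelled mice in cytotoxic cells (-3.37 ± 0.48), recirculating cells (-2.41 ± 0.38) and cycling cells (-2.0 ± 0.43). Krt18 passed the filter on low counts in 2 clusters, Th17 and recirculating cells, with -1.3 ± 0.30 in the second. Epcam and Cdh1 passed it in 0 of the 7 clusters, so their changes within clusters were too thinly covered for this fit.

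For comparison, the level of Reg3b over both genotypes ran from 8.13 CPM in the lowest cluster to 18.8 CPM in the highest, a 2.31-fold range, and Reg3g and Lgals4 had ranges of 3.62-fold and 6.64-fold. The same range was 87.2-fold for Tff1, 38.2-fold for Krt18 and 44.0-fold for Epcam. Per Reg3b UMI there were 19.3 Tff1 UMIs in Th17 cells, 7.65 in cycling cells and 2.52 in cytotoxic cells, against 0.153 in unnamed 1. Likewise there were 3.17 Epcam UMIs per Reg3b UMI in regulatory cells and 0.0606 in recirculating cells. The ratios of these genes to Reg3b thus differed between clusters of the same library. Ranges of sparse genes are wider through counting alone, and this was not tested.

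In shares of cells, 11.7% of Th17 cells of KO-labelled mice and 32.8% of Th17 cells of WT-labelled mice had a Tff1 UMI (exact 95% binomial intervals 9.18 to 14.7% and 30.6 to 35.1%, over pooled cells). KO-labelled mouse 6 gave 48 of the 66 positive cells of KO-labelled mice, and without it the share was 4.68%. Among cells of unnamed 1 the shares were 0.252% in KO-labelled mice and 1.82% in WT-labelled mice. Th17 cells were somewhat deeper, with medians of 3161 and 2643 UMIs per cell for Th17 and unnamed 1 in KO-labelled mice and 3468 and 2889.5 in WT-labelled mice. With every cell thinned to 1500 UMIs, the Th17 shares were 6.99% in KO-labelled mice and 20.5% in WT-labelled mice. Over all cells the thinned share per mouse averaged 0.765 ± 1.04% in KO-labelled mice and 6.88 ± 1.93% in WT-labelled mice for Tff1. For Krt18 it averaged 0.475 ± 0.261% and 1.6 ± 0.586%, for Epcam 0.492 ± 0.271% and 0.317 ± 0.207%, and for Cdh1 1.56 ± 0.744% and 0.685 ± 0.343%, with KO-labelled mice first in each pair (SD, n = 6 each). Reg3b was at 2.15 ± 0.270% in KO-labelled mice and 2.18 ± 0.224% in WT-labelled mice. Epcam was found in 5.31% of thinned regulatory cells of KO-labelled mice and in 5.36% of those of WT-labelled mice.

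Tff1 came in more than 1 copy in part of its positive cells, in Th17 cells and in other clusters. Cells with a Tff1 UMI numbered 1169, of which 584 (50%) had 2 or more, and the highest had 19. UMIs per positive Th17 cell were 2.44 in KO-labelled mice and 3.0 in WT-labelled mice. An even spread of the same UMIs in proportion to depth within each genotype and cluster would give 1.16 in KO-labelled mice and 1.62 in WT-labelled mice. This value pooled the mice of a genotype, so differences between mice lower it. In KO-labelled mice, mouse 6 held 119 of the 161 Tff1 UMIs of Th17 cells. Positive cycling cells had 3.59 UMIs in KO-labelled mice (22 cells) and 2.47 in WT-labelled mice (120 cells), against 1.07 and 1.31 for an even spread. Of the 79 Tff1 UMIs in cycling cells of KO-labelled mice, 54 came from mouse 6. Positive cytotoxic cells of WT-labelled mice had 1.80 UMIs, against 1.08 for an even spread, and those of KO-labelled mice 1.11 against 1.01.

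Krt18 in Th17 cells of WT-labelled mice had 1.46 UMIs per positive cell, against 1.09 for an even spread, and a highest count of 6. The other genes had few cells with more than 1 UMI. Only 14 of 127 Epcam-positive cells and 18 of 336 Cdh1-positive cells had 2 or more, with highest counts of 2 and 3. Epcam had 1.21 UMIs per positive regulatory cell of KO-labelled mice, against 1.07 for an even spread, and 1.0 against 1.04 in WT-labelled mice. Reg3b had 71 of 725 positive cells with 2 or more UMIs and 1.15 UMIs per positive cell, with a highest count of 15 in a single cell.

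**Figure D3:**
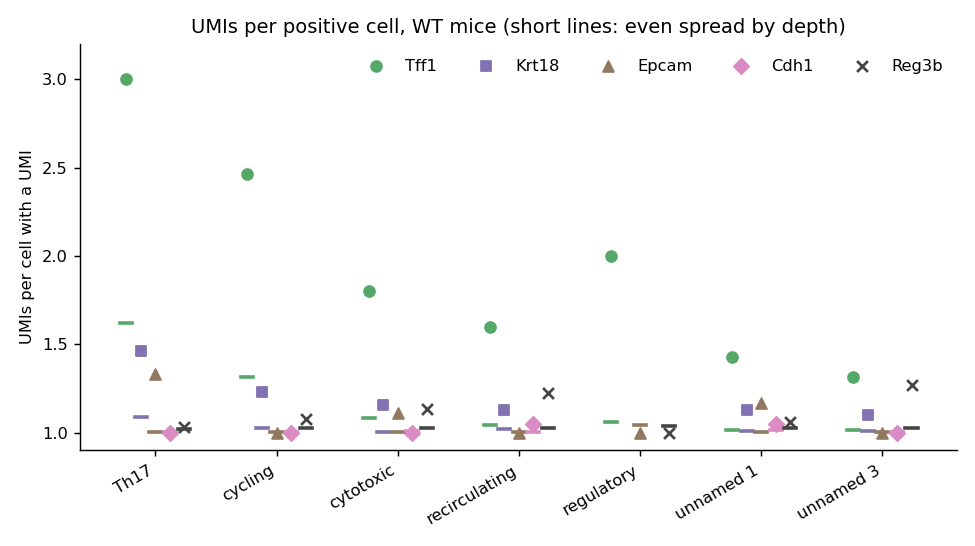
UMIs per cell with a UMI of the gene, by cluster of WT-labelled mice, for Tff1, Krt18, Epcam, Cdh1 and Reg3b, with short lines at the value of an even spread in proportion to depth. Tff1 reaches 3.0 in Th17 cells, where its even spread is 1.62, and the other genes stay between 1.0 and 1.46.

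Over all cells the deposited doublet score had medians close to each other in cells with and without these transcripts. Its median was 0.0626 in cells with a Tff1 UMI and 0.0656 in cells without one. It was 0.0661 and 0.0656 for Krt18, 0.0588 and 0.0656 for Epcam, and 0.0641 and 0.0656 for Cdh1, with cells holding a UMI first in each pair. Cells were then compared within mouse, cluster and quartile of depth, with 1 difference per mouse, over 16 pairs of gene and measure. The mean score for Tff1 was 0.0662 in positive cells and 0.0792 in negative cells, and positive cells were lower in 10 of 11 mice. The two-sided exact sign-flip permutation p was 0.00684, and 0.0547 after Benjamini-Hochberg adjustment over the 16, which missed 0.05. For Krt18, Epcam and Cdh1 the differences were -0.00482 ± 0.0108, 0.00248 ± 0.0145 and -0.00246 ± 0.0112 (SD over 12, 10 and 12 mice).

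**Figure D4:**
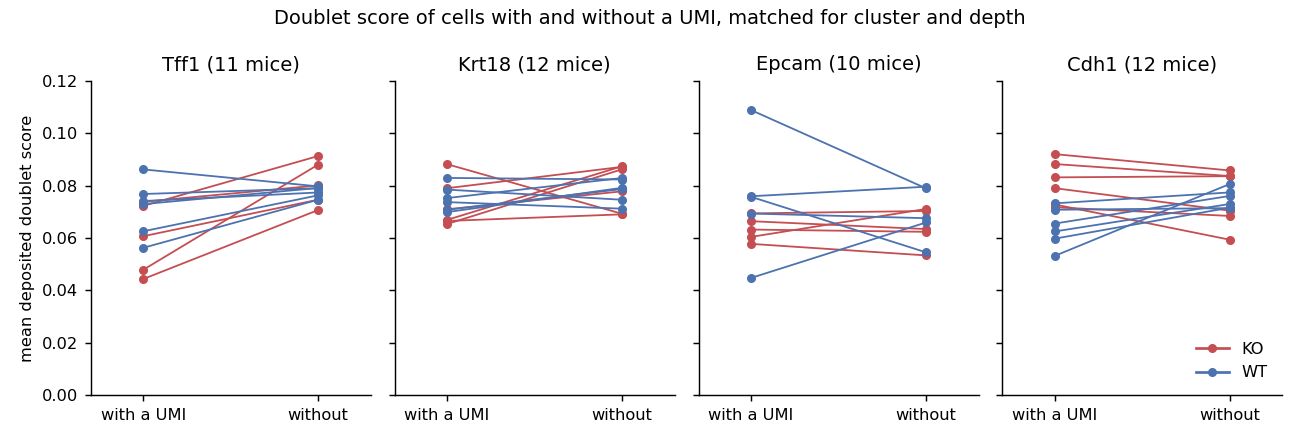
Mean deposited doublet score of cells with and without a UMI of each gene, matched for cluster and depth, with 1 line per mouse. For Tff1 the score is lower in cells with a UMI in 10 of 11 mice, and for the other genes the lines run both ways.

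Transcripts of the T cell receptor complex (7 genes) took 0.436% of UMIs in positive cells and 0.399% in negative cells, higher in 10 of 11 mice (exact sign-flip permutation p 0.00195, adjusted 0.0313). KO-labelled mouse 3, with 6 positive cells, was the exception. Limited to mice with at least 10 positive cells, the difference was 0.0407 percentage points and positive cells were higher in 9 of 9 mice. The exact p of 0.00391 was then the smallest that 9 mice allow, and it adjusts to 0.0625. A deposited clonotype was present in 92.0% of Tff1-positive cells and 85.4% of negative cells before matching, and after matching the difference missed the threshold (8 of 11 mice higher, exact p 0.0977, adjusted 0.3125). The share of cells with a UMI of another pan-epithelial gene (Krt8, Krt19, Cldn7, Cdh17 or Lgals4) was 4.51% in Tff1-positive cells and 1.3% in negative cells, higher in 5 of 11 mice (exact p 0.399, adjusted 0.710). Without KO-labelled mouse 3, which had 6 positive cells, the shares were 1.63% in positive and 1.4% in negative cells. For Krt18 that share was 3.18% and 1.55%, higher in 8 of 12 mice (exact p 0.0488, adjusted 0.201), with positive cells given first. None of the other tests of Krt18, Epcam and Cdh1 passed 0.05 after adjustment either.

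Few cells held UMIs of 2 of the 4 genes, apart from those with Tff1 and Krt18. Sparse genes share few cells by chance alone, and the overlaps were not tested against that. Of all cells 1726 had a UMI of 1 of the genes, 155 of 2 and 0 of 3 or 4. Tff1 and Krt18 shared 132 cells, 11.3% of the Tff1-positive and 32.7% of the Krt18-positive cells. Tff1 shared 4 cells with Epcam and 9 with Cdh1, and Epcam and Cdh1 shared 4. Among Th17 cells of WT-labelled mice 1 to 6, Krt18 was found in 20.5, 20.4, 11.4, 20.5, 19.4 and 17.6% of Tff1-positive cells and in 8.42, 5.59, 7.25, 7.39, 4.95 and 6.0% of Tff1-negative cells. The share was higher in Tff1-positive cells in each of the 6 mice. These shares were not matched for depth, which raises the share for any gene. Over all cells, those with a Tff1 UMI had a median of 3992 UMIs and those without one 2721.

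Tff1-positive Th17 cells of WT-labelled mice were then set against the same number of negative Th17 cells of the same mouse and depth, 544 positive cells in all, in a comparison across 4476 genes. Median depth still differed in WT-labelled mouse 1, at 4061 UMIs in positive and 3730 in negative cells, and in mouse 2, at 3877 and 3488. It called 265 genes besides Tff1 (5.92%), 117 higher and 148 lower in positive cells, by edgeR's quasi-likelihood test with the mouse as a block. Krt18 was among the higher ones, with 70.7 CPM in positive and 28.1 CPM in negative cells, a log2 fold change of 1.38 ± 0.22 (SE, adjusted p 6.93e-05, edgeR). It was higher in 5 of 6 mice, the exception being WT-labelled mouse 3. In the reverse comparison, Krt18-positive Th17 cells had more Tff1. WT-labelled mice 1 to 6 had 533.0, 590.8, 411.9, 593.6, 419.2 and 298.3 CPM of Tff1 in Krt18-positive cells and 316.5, 323.3, 362.9, 343.4, 133.6 and 207.6 CPM in negative cells. Tff1 thus rose by 0.74 ± 0.15 on the log2 scale (SE, adjusted p 0.0340, edgeR), but the call was lost without WT-labelled mouse 1, 2, 4 or 5, with adjusted p of 0.0940, 0.213, 0.255 and 0.0587. That comparison called 2 of 2038 genes (0.0981%), Tff1 and Itm2b, a membrane protein gene whose call was lost without WT-labelled mouse 2, 4, 5 or 6. Both calls rested on an adjustment that included Krt18, which defined the groups and so ranked first by construction. With Krt18 left out of the adjustment, neither adjusted p would be under 0.05. No T cell subset marker was called in that comparison.

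Among the other genes, Il17a was the one with the smallest p in Tff1-positive Th17 cells. WT-labelled mice 1 to 6 had 1224, 1346, 2447, 1566, 947 and 1143 CPM of Il17a in Tff1-positive cells, against 591, 653, 418, 769, 147 and 649 CPM in negative cells. Il17a thus rose by 1.32 ± 0.13 (SE, adjusted p 5.03e-08, edgeR), in each of the 6 mice. Gzma, a granule protease of killer cells, had 361.0 CPM in positive and 79.4 CPM in negative cells, a log2 fold change of 1.98 ± 0.23 with 5 of 6 mice higher. WT-labelled mice 2 to 5 had 341 to 803 CPM in positive cells and 21.0 to 267 CPM in negative cells. In mice 1 and 6 Gzma was sparse, with 8 and 7 UMIs in positive cells and 3 and 11 in negative cells. Ramp1, which partners the receptor of the neuropeptide CGRP, rose by 1.08 ± 0.13. Smaller rises were found for Cyb5a (0.64), Itm2b (0.43) and Tmsb4x (0.22).

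Among the genes lower in Tff1-positive Th17 cells, Zfp36l2, an RNA-binding protein that promotes mRNA decay, fell by 1.01 on the log2 scale (SE 0.10, 195.7 CPM in positive and 398.4 CPM in negative cells, adjusted p 5.89e-08, edgeR), in 6 of 6 mice. Nr4a1, an immediate early gene of receptor signalling, had a log2 fold change of -0.73, and Il7r, the IL-7 receptor, of -0.60. Gramd3 (-0.83), Nfkbiz (-0.63) and Ubald2 (-0.51) were also lower in 6 of 6 mice. Of 5 recirculation markers, 3 could be tested and all 3 fell, with log2 fold changes of -1.11 for Klf2, -1.90 for the lymph node homing receptor Ccr7 and -0.93 for Tcf7. Of 7 Th17 markers, 5 could be tested and only Il17a was called. Il22, a cytokine that acts on epithelium, had a log2 fold change of 0.17 ± 0.14 (adjusted p 0.609, edgeR). Of 9 T cell markers 1 was called, the receptor subunit Cd3g at 0.26. Of 4 cytotoxic markers tested Gzma was called, and of 2 regulatory markers Ctla4 at 0.40, while 0 of 2 cycling markers were called. Over all genes tested 5.92% were called, and lists this short were not tested against that share. The median log2 fold change was 0.10 for the T cell list, 0.31 for the Th17 list and -1.11 for the recirculation list, beside -0.01 for all genes tested. The 12 named genes and Krt18 kept their direction and their call when any 1 of the 6 mice was left out and against all negative cells.

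In cytotoxic cells of WT-labelled mice, 234 of 3037 cells had a Tff1 UMI. Compared in the same way, 11 of 1865 genes were called (0.59%), 5 higher and 6 lower. In WT-labelled mouse 1, 33 of 67 positive cells shared 1 clonotype, and in WT-labelled mouse 5, 28 of 75 did. What these clones add to the called genes was not tested. Cd160, a receptor of cytotoxic and intraepithelial lymphocytes, had 488.8 CPM in Tff1-positive and 204.9 CPM in negative cells, a log2 fold change of 1.05 ± 0.17 in 6 of 6 mice. Cd7 rose by 1.00 and Capg, an actin-capping protein, by 1.08. Itgae, which encodes the alpha chain of CD103, rose by 0.96. Klf2, which drives exit from tissue, fell by 1.73 (SE 0.20, 149.8 CPM in positive and 520.0 CPM in negative cells, adjusted p 1.24e-06, edgeR), in 5 of 6 mice. The other lower genes had log2 fold changes of -1.15 for the granzyme Gzmk, -0.90 for the costimulatory receptor Cd28, -0.59 for Nr4a1, -1.37 for Tuba4a and -0.91 for Nr4a2. Gzmk was the only one called of 5 cytotoxic markers tested and Klf2 the only recirculation marker tested, and none of the 9 T cell markers was called. Cd7, Cd160, Klf2 and Gzmk kept their call when any 1 mouse was left out, and the other calls apart from Penk were lost without some mice, with adjusted p of 0.0558 to 0.251 (edgeR). Those were mouse 2 or 3 for Capg, mouse 1 or 3 for Itgae and Cd28, mouse 1 for Nr4a1, mouse 1, 2, 3 or 5 for Tuba4a and mouse 1, 2 or 3 for Nr4a2.

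Penk, the gene of the opioid precursor proenkephalin, had the largest log2 fold change of those 11 genes, 4.02 ± 0.40 (SE, adjusted p 5.61e-08, edgeR). WT-labelled mice 1 to 6 had 79.7, 414.7, 604.0, 839.2, 81.2 and 12890 CPM of Penk in Tff1-positive cytotoxic cells, and 25.3, 0, 147.7, 37.9, 7.74 and 0 CPM in the matched negative cells. WT-labelled mouse 6, with 7 positive cells, was far above the others. Without it the log2 fold change was 2.90, and against all negative cells 2.55. Against all negative cells the level was lower in the Tff1-positive cells of WT-labelled mice 1 and 5, where it was 79.7 and 81.2 CPM in positive and 116.1 and 148.6 CPM in negative cells.

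**Figure D5:**
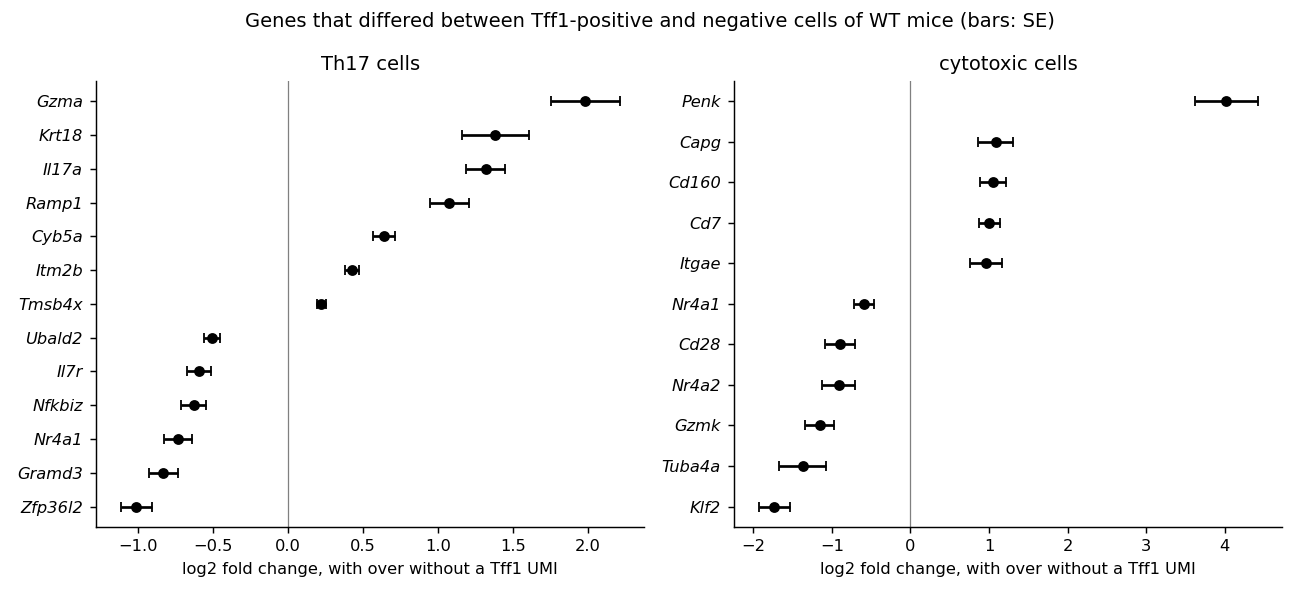
Log2 fold change with SE of the named genes between Tff1-positive and depth-matched negative cells of WT-labelled mice, in Th17 cells and in cytotoxic cells. Il17a, Gzma and Krt18 lie above 1 in Th17 cells, and Klf2 is the lowest of the genes in cytotoxic cells.

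Clones, meaning cells that share a deposited T cell receptor clonotype, carried uneven parts of the Tff1 signal. In Th17 cells of WT-labelled mice, 500 positive cells with a clonotype fell into 265 clonotypes, and the largest held 3.4% of them. That clonotype had 25 Th17 cells, of which 68.0% had a Tff1 UMI. In Th17 cells of KO-labelled mice, 58 positive cells fell into 26 clonotypes and the largest held 31.0%. It belonged to KO-labelled mouse 6, where 48 of 178 Th17 cells were positive with 119 UMIs, and 1 clonotype of 43 Th17 cells gave 59 of those UMIs (49.6%). In cytotoxic cells of WT-labelled mouse 1 a clonotype of 89 cells gave 61 of 106 Tff1 UMIs, and in WT-labelled mouse 5 a clonotype of 86 cells gave 51 of 133. Krt18-positive Th17 cells of WT-labelled mice were spread over 135 clonotypes in 175 cells, and Cdh1-positive cells of unnamed 1 in KO-labelled mice over 83 clonotypes in 85 cells.

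Of the 3 measured neighbours of Tff1 on chromosome 17, Tmprss3 and Ubash3a had a lower mean in KO-labelled mice, by less than Tff1 did. The third, Tff3, was too sparse to give a direction. Tff3, another trefoil gene, had 23 UMIs in all, 9 in KO-labelled mice and 14 in WT-labelled mice, and Tff2 was not among the genes of the table. Ubash3a, a phosphatase gene of T cells that lies beyond Tmprss3, had 119.8 ± 6.51 CPM in KO-labelled mice and 133.1 ± 7.83 CPM in WT-labelled mice (SD, n = 6 each). It was called, with a log2 fold change of -0.19 (SE 0.05, adjusted p 0.0264, edgeR). That call was lost without KO-labelled mouse 1 or 5 or WT-labelled mouse 4, 5 or 6. Tmprss3, a membrane protease gene between Tff1 and Ubash3a, was at 0.596 ± 0.332 CPM in KO-labelled mice and 2.32 ± 0.591 CPM in WT-labelled mice, from 17 and 69 UMIs. Tff3 and Tmprss3 did not pass the filter on low counts. Without that filter Tmprss3 had a log2 fold change of -1.93 (SE 0.34, adjusted p 0.00132, edgeR). In WT-labelled mice a Tmprss3 UMI was found in 2.05% of Th17 cells, 0.826% of recirculating cells and 0.230% of cytotoxic cells.

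The genes whose levels over mice and clusters were most like each of the 4 were named by Pearson's r of log2(CPM + 5), a description with no p since the sums share 1 library and the clusters. Over 80 sums of all mice, Tff1 was nearest to Pde5a (r 0.78), Nrgn (0.75), Sec11c (0.69), Avpi1 (0.68) and Tox2 (0.67). Over 39 sums of WT-labelled mice alone, its 5 nearest were Tox2, Pde5a, Avpi1, Il17a and Nrgn, with r from 0.74 to 0.84. Krt18 was nearest to Pde5a, Prelid2, Il17re, Cxcl3 and Il1r1 over all mice (0.63 to 0.67), and to Il17re, Atf6, Prelid2, Tmem176a and Il22 over WT-labelled mice (0.79 to 0.83). Epcam was nearest to Pcyt1a, Arl5a, Ikzf2, Foxp3 and Itgav over all mice (0.74 to 0.77), where Foxp3 is the lineage regulator of regulatory T cells. Over WT-labelled mice it was nearest to Arl5a, Upp1, Rln3, Foxp3 and Ncoa3 (0.79 to 0.82). Cdh1 was nearest to Nedd4, Dapk2, Zfp683, St3gal6 and Qpct over all mice (0.67 to 0.71), and to Themis, Ctsw, Fam26f, Ddx58 and Lrch1 over WT-labelled mice (0.60 to 0.62).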

How the data were processed

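The submitters' processing notes name Cell Ranger (3.1.0), Seurat (3.1.5) and the builds GRCm38 and mm10. The authors deposited raw UMI counts, and per-cell annotation with mouse, genotype, cluster, clonotype, a doublet score and a percent of mitochondrial UMIs, which was not used. The deposited genotype matched the hashtag table in all 18860 cells, which had 18860 distinct barcodes. No doublet caller was run. The 4 genes, the lists, the tests and the rule for named genes were chosen with earlier results of these data known. The named genes were the 4 genes, panel genes with at least 50 UMIs, neighbours of Tff1 and the 5 most similar genes. The comparisons of depth-matched positive and negative cells, and their 6 genes of smallest p in each direction, were added after values were seen. Their adjustment included the gene that defined the groups, which was then left out of the counts.

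UMIs were summed per mouse, or per mouse and cluster with at least 20 cells, and fitted by quasi-likelihood in edgeR 4.0.16 (R 4.3.3, TMM, filterByExpr, Benjamini-Hochberg over all genes tested). The SE was the log2 fold change divided by the square root of F. The fits were tested on simulated data. Positive and negative cells were compared with exact sign-flip permutation tests over mice with at least 5 positive cells. Thinning to 1500 UMIs left out 491 cells of KO-labelled mice and 407 of WT-labelled mice. Alternatives were DESeq2 1.42.0 and its size factors, no filter, fixed cluster weights, each mouse left out, other cell sets, other strata, minimums and thinning. Mice are the replicates. Donors and litters are not given, so p-values measure the spread between these mice. Intervals cover counting error only. Numbers of mice only name them and pair nothing.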

Additional observations from a re-analysis of the deposited data

Results flagged for a closer look

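Over all cells, KO-labelled mouse 6 had 37.1 CPM of Tff1, far from the other KO-labelled mice, whose values ran from 0.706 to 12.1 CPM. Dixon's test at 95% marked it among 25 groups tested, where chance marks about 1 group in 20. In that mouse 205 of the 296 Tff1 UMIs of KO-labelled mice were found, and its Th17 share of 10.8% was the highest of the KO-labelled mice.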

How the results depend on the processing

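The directions of Tff1, Krt18, Epcam and Cdh1 between KO and WT-labelled mice were kept under every alternative that gave a value. Epcam did not pass the filter in the cells with a clonotype. With each mouse left out in turn, the log2 fold change ran from -4.44 to -2.88 for Tff1, -2.13 to -1.78 for Krt18, 0.99 to 1.47 for Epcam and 0.89 to 1.44 for Cdh1. Krt18 moved to -1.39 with fixed cluster weights. Epcam was called without KO-labelled mouse 4, and Cdh1 by the DESeq2 test and without KO-labelled mouse 4 or 6 or WT-labelled mouse 1. Since both genes were chosen from this contrast, nothing is read from these calls. None of the panel genes beyond these 4 was called in the alternatives run. With at least 10 positive cells per mouse, the difference in T cell receptor UMIs of Tff1-positive cells was 0.0407, higher in 9 of 9 mice, with the smallest p that 9 mice allow (0.0625 after adjustment). Signs turned for Epcam in doublet score (-0.00551) and clonotype share (-2.51). For Cdh1 the clonotype difference turned to 1.25 there and to 0.467 with strata of mouse and cluster. None of the differences that turned had passed the test, and the cause was not tested. Shares of cells scale with depth by construction. Thinned to 500 UMIs they were 0.181% for Epcam and 0.391% for Cdh1 in KO-labelled mice, and 2.97% for Tff1, 0.559% for Krt18, 0.0860% for Epcam and 0.188% for Cdh1 in WT-labelled mice. Without thinning they were 0.988% for Krt18 and 0.886% for Epcam in KO-labelled mice, and 11.3% for Tff1, 3.35% for Krt18 and 1.19% for Cdh1 in WT-labelled mice. Against all negative cells without depth matching, 446 genes were called for Tff1 in Th17 cells, 21 for Krt18 and 191 for Tff1 in cytotoxic cells. These counts ran from 168 to 280, 0 to 8 and 6 to 22 with a mouse left out. Without WT-labelled mouse 4 or 5, where 0 genes were called for Krt18 by edgeR, 102 of 1803 and 140 of 2173 tested genes had an unadjusted p under 0.05. A share of 0.05 is given by chance alone. These alternatives, and leaving out KO-labelled mouse 3 or 6 for shares of cells, were chosen after seeing the data. Penk did not pass the filter without WT-labelled mouse 3. A minimum of 50 cells could not be fitted for regulatory cells. No paired analysis was possible because, between KO and WT labels, the numbers of the mice only name them, while positive and negative cells were paired within each mouse throughout. The depth limits Epcam and Cdh1 most, with 141 and 356 UMIs in all.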
